A study of Mus musculus with 9 samples.

Results

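TRIM proteins are ubiquitin ligases, named for a tripartite motif of a RING finger, B-boxes and a coiled coil. The RING recruits a ubiquitin-charged E2 enzyme, and a variable C-terminal domain, most often SPRY, selects the target. Several members are induced by IFN and either restrict viruses or tune the signalling of cytosolic nucleic acid sensors and TLRs, the receptors through which plasmacytoid dendritic cells (pDCs) start their IFN-I response. The family was taken as the genes whose symbol is Trim followed by a number and at most one letter from a to e. This gave 68 of the 52550 genes listed for the library analysed here.

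The library, A/A replicate 1, was made from sorted splenic pDCs (CD11c-int, SiglecH+, PDCA1+) of C57BL/6 mice homozygous for the *Ncf1* knock-in that changes arginine 90 to histidine. The knock-in is carried by every cell of the animal. The cells were cultured for 12 hours with R848, a TLR7/-8 ligand, at 10 μg/mL, and the methods of the study give the mice as females of 10 to 12 weeks. The series has 9 samples, 3 for each of the A/A, G/A and G/G genotypes. As 8 of the libraries were not analysed here, genotypes are not compared, and no value has a replicate error. All samples of the series received R848, so resting cells are not compared either. The labels do not give the number of animals per library.

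The library held 31408298 reads on 17664 genes. All 11 pDC markers examined had reads, with a summed level of 10293 CPM (reads divided by the library total, times 1000000). The summed level was 1958 CPM for 7 conventional DC markers and 472 CPM for 6 macrophage markers. Of the conventional DC sum, *Ccl22* held 1347 CPM and *Fscn1* 428 CPM, whereas *Zbtb46* had 106 CPM, *Clec9a* 73.9 CPM, *Clec10a* 2.36 CPM and *Xcr1* 1.72 CPM, and *Cd209a* was listed at 0. The sum was 11.5 CPM for 6 B cell markers and 19.9 CPM for 6 T cell markers, of which *Cd3d*, *Cd3e*, *Cd3g* and *Bcl11b* were listed at 0, as was *Pax5* among the B cell markers. *Cd4* alone held 19.5 CPM of the T cell sum. The part of such other cells in the TRIM reads was not tested. In sorted bulk RNA, fewer cells of a type and less RNA per cell cannot be told apart. Against the sex given for the mice, all 4 Y-linked genes examined had reads (19.0 to 102 CPM) and *Xist* was listed at 0.

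Of the 68 TRIM genes, 42 were above the floor of 3 reads (0.0955 CPM), or 61.8%. The share above the floor was 30.4% of all genes listed and 55.3% of protein-coding genes, so the family as a whole was detected about as often as other protein-coding genes. *Trim55* stood at the floor with 3 reads, and the other 25 genes were listed at 0. The lowest gene above the floor, *Trim15*, had 12 reads. Among protein-coding genes, 9618 were listed at 0 while 139 had 1 to 3 reads and 497 had 4 to 10, and the step that gave so many zeros is not given in the sources used here. The TRIM genes without reads are therefore described as listed at 0, and not as silent.

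Together the family held 107386 reads, or 3419 CPM (95% CI, 3399 to 3440), which is 0.342% of the library. These reads were unevenly spread. *Trim30a* alone held 28.4% of them. *Trim30a*, *Trim25*, *Trim30d* and *Trim14* together held 58.5%, and the 10 genes with the most reads held 79.3% (95% CI, 79.0% to 79.5%). The median TRIM gene with reads had 26.4 CPM (quartiles, 5.99 and 75.8), and the median protein-coding gene with reads had 17.8 CPM (quartiles, 3.92 and 54.0). All intervals cover only the counting error of reads in this library. Without molecular identifiers the PCR copies of a molecule cannot be told from separate molecules, so the intervals may be too narrow.

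Because longer transcripts collect more reads, genes were compared as reads per kilobase of annotated exon. Exons of all transcripts of a gene were merged, and the longest transcript can be much shorter than this. Ratios, ties and places given below therefore hold for merged exons, and their intervals leave out the choice of length. On this scale the median TRIM gene with reads had 158 reads per kilobase, against 120 for protein-coding genes with reads. The plot of TRIM genes over the distribution of protein-coding genes shows where each lies.

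**Figure D1:**
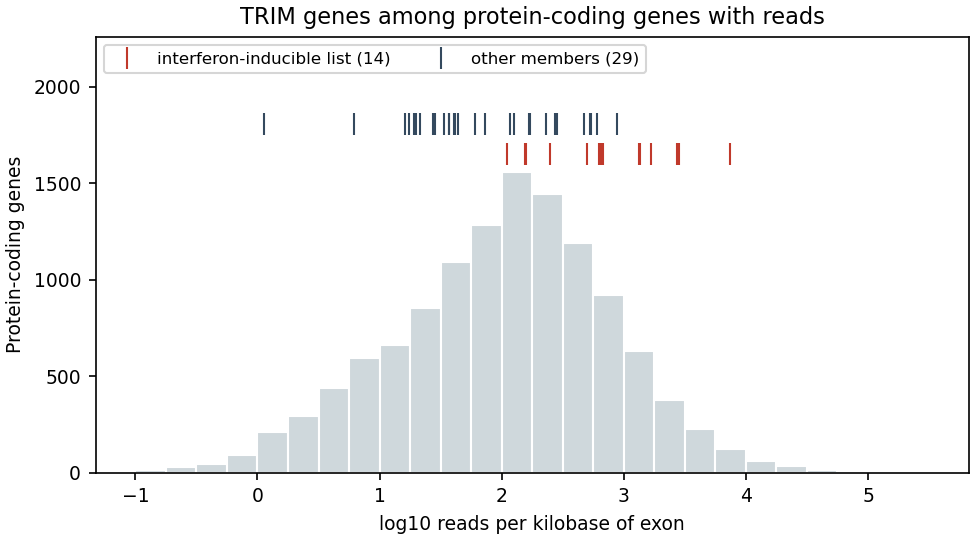
Number of protein-coding genes with reads (grey bars) by log10 reads per kilobase of exon in A/A replicate 1, with each TRIM gene with reads as a tick, red for the interferon-inducible list and dark blue for other members. Of the 14 red ticks, 13 lie above the protein-coding median of 120 reads per kilobase, whereas the dark blue ticks lie on both sides of it.

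A list of 14 TRIM genes known to be induced by IFN in mouse cells was drawn from general knowledge. It was made with earlier results of these data known, and its levels are a description. All 14 were above the floor, against 55.3% of protein-coding genes, and 13 of the 14 exceeded the protein-coding median per kilobase. They held 80.9% of the family's reads. Their median was 660 reads per kilobase (range, 110 to 7419), and that of the other 28 genes above the floor was 52.5 reads per kilobase (range, 6.12 to 877). The ranges overlapped. Of the 10 highest genes per kilobase, 9 were on the list, the exception being *Trim8*.

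The letters upstream of these genes are shown because the IFN-stimulated response element (ISRE), a site bound by IRFs, is the shared promoter feature best known for this gene group. The ISRE was searched as GAAA, any pair of bases and GAAA again, on either strand, in RefSeq windows from 250 bases before to 50 bases after each annotated start (GRCm38.p6). Such windows were at hand for 53 of the 68 TRIM genes. Matches lay upstream of the annotated start in *Trim30a*, *Trim30d*, *Trim5*, *Trim12c* and *Trim26*. They are printed 5′ to 3′ on the strand of the gene with the match in capitals, which read TTTC, a pair of bases and TTTC where the element lies on the opposite strand.
Trim30a (chr7:104465195-104465254, minus strand): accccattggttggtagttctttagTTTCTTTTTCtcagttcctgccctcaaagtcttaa
Trim30d (chr7:104507856-104507915, minus strand): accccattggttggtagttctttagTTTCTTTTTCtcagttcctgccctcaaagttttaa
Trim5 (chr7:104288121-104288180, minus strand): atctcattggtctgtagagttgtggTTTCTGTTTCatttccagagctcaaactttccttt
Trim12c (chr7:104353350-104353403, minus strand): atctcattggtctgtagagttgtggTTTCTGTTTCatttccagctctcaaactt
Trim26 (chr17:36836961-36837026, plus strand): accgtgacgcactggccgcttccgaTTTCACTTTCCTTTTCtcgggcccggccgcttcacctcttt

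The match began 36 bases before the start in *Trim30a*, 41 in *Trim30d*, 49 in *Trim5*, 29 in *Trim12c* and 160 in *Trim26*. An additional annotated start of *Trim30a* held the same letters just after it. In *Trim26* a pair of overlapping matches made a triple repeat. In *Trim34a*, *Trim12a* and *Trim21* the match lay within 29 bases after the RefSeq start, and only the 30 bases around it are shown. For *Trim12a* the match lies upstream of the gene start given with the deposited values.
Trim34a (chr7:104244457-104244486, plus strand): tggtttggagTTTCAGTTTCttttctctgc
Trim12a (chr7:104315466-104315495, minus strand): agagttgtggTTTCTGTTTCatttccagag
Trim21 (chr7:102565447-102565476, minus strand): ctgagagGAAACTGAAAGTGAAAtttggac

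Thus 8 of the 30 TRIM genes above the floor with a window held the ISRE letters (26.7%), against 3.99% of all 27025 genes with a window and 4.28% of all genes above the floor. These 8 are not separate cases, as *Trim30a*, *Trim30d*, *Trim34a*, *Trim5*, *Trim12a* and *Trim12c* are neighbours on chromosome 7. The aligned promoter bases were 93.6% identical between *Trim30a* and *Trim30d*, and 93.9% to 100% among *Trim5*, *Trim12a* and *Trim12c*. All 8 were on the interferon-inducible list, where they made up 8 of the 13 genes with a window. None of the other 17 TRIM genes above the floor with a window held them. Of the 23 genes at or under the floor, 1 did (4.35%), *Trim2*, a neuronal NHL-repeat ligase listed at 0. The 8 genes with the letters had a median of 660 reads per kilobase (range, 110 to 7419), and the 22 without them had a median of 94.8 (range, 6.12 to 2841). As the 22 include the 17 genes off the list, letters and list membership cannot be told apart in this contrast. *Trim25*, *Trim30b*, *Trim30c*, *Trim34b* and *Trim56* are on the list and had no match in their windows, which says nothing of sites elsewhere. They had 2841, 497, 1357, 158 and 156 reads per kilobase, all within the range of the 8 genes with the letters. The same repeat spaced by a single base, a different arrangement that may overlap the ISRE letters, was found as often. It was in 9 of the 53 TRIM genes with a window and in 8 of the 30 above the floor (26.7%). Of the 13 interferon-inducible genes, 7 held it. The share was 3.70% of all genes with a window and 3.06% of those above the floor. Of the 17 other TRIM genes above the floor, 1 held it. These are descriptions of letters in a window and were given no test.

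**Figure D2:**
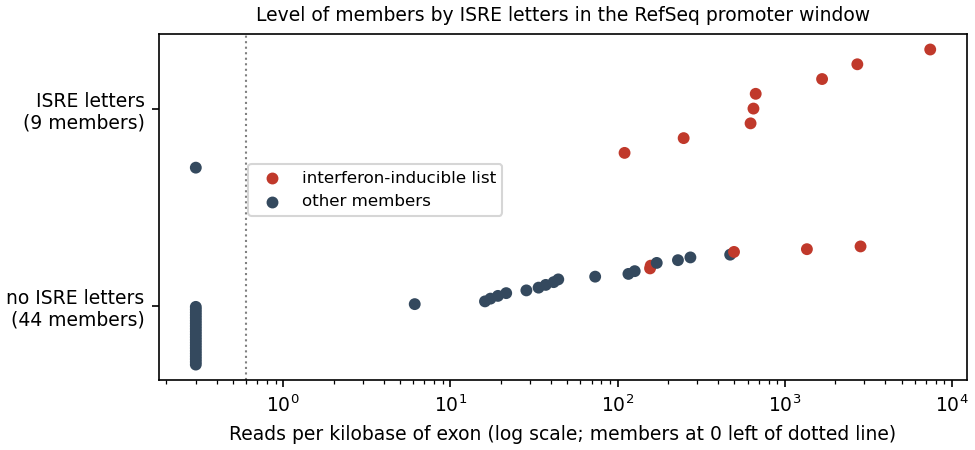
Reads per kilobase of exon (log axis) of the 53 TRIM genes with a RefSeq promoter window, by whether the window holds the ISRE letters; red points are on the interferon-inducible list, and genes listed at 0 are drawn left of the dotted line. Of the 9 genes with the letters, 8 lie between 110 and 7419 reads per kilobase and *Trim2* is at 0.

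Of the 14 interferon-inducible genes, 9 lie side by side. The 10 TRIM genes of the chromosome 7 array, from *Trim6* to *Trim30d* (chr7:104218793-104507849, 289 kb), were all above the floor, against 55.3% of protein-coding genes. They held 54.8% of the family's reads (95% CI, 54.5% to 55.1%). *Trim30a*, which promotes loss of the TAK1-binding adaptors TAB2 and TAB3 and so restrains TLR-driven NF-κB, was the highest TRIM gene. It had 30498 reads, or 971 CPM (95% CI, 960 to 982). Per kilobase it ranked above 98.8% of the genes with reads. *Trim30d* had 10216 reads, or 325 CPM (95% CI, 319 to 332), *Trim30b* had 3743 reads and *Trim30c* had 2329. The 7419 reads per kilobase of *Trim30a* were 2.73-fold those of its neighbour *Trim30d* (95% CI, 2.67 to 2.79), 5.47-fold those of *Trim30c* and 14.9-fold those of *Trim30b*. The steps between the *Trim30* genes were thus larger than the counting error.

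The promoter windows of *Trim30a* and *Trim30d* were 93.6% identical over 295 aligned bases and held the same ISRE letters. Identical stretches of 150 bases in another gene made up 3.24% of the transcript windows of *Trim30a* and 3.23% of those of *Trim30d*, and 0% of those of *Trim30c* and *Trim30b*. *Trim12a* and *Trim12c*, a pair of close paralogs, had 670 and 650 reads per kilobase and did not differ beyond counting error (ratio, 1.03; 95% CI, 0.98 to 1.09). This tie depends on the length used. *Trim12a* has 5781 merged exon bases but a longest transcript of 3730, whereas *Trim12c* has 3740 by either measure. *Trim5*, the mouse relative of the primate factor that binds retroviral capsids, had 917 reads, or 29.2 CPM, and 249 reads per kilobase. Its promoter window was identical to that of *Trim12a* over the 241 bases that aligned, although *Trim12a* had more reads per kilobase. Reads of *Trim5*, *Trim12a* and *Trim12c* could have been split in part, as 3.29%, 0.382% and 2.54% of their 150-base windows occurred in another gene. Of their 50-base windows, 36.3%, 10.4% and 33.0% did, so the levels of these genes are uncertain.

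*Trim34a* had 4336 reads, or 138 CPM, and 1673 reads per kilobase, which was 10.6-fold the level of *Trim34b* (95% CI, 9.41 to 12.0). This pair is less certain. Exons on the other strand covered 23.5% of *Trim34a*, and 8.06% of its 150-base windows and 11.6% of those of *Trim34b* occurred in another gene. Of the 50-base windows, 39.8% for *Trim34a* and 56.8% for *Trim34b* did. *Trim6*, which makes free ubiquitin chains that activate IKKε, was the lowest gene of the array, with 182 reads, 5.79 CPM and 37.2 reads per kilobase. The array therefore spanned a wide range of levels although its genes are neighbours.

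**Figure D3:**
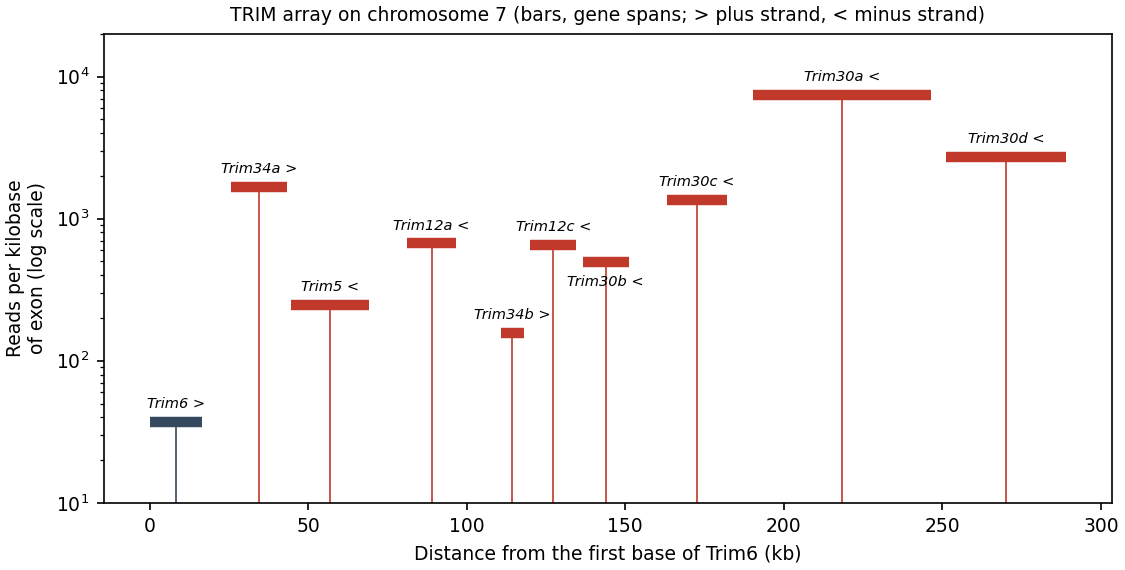
Reads per kilobase of exon (log axis) of the 10 TRIM genes of the chromosome 7 array against the distance from the first base of *Trim6* (kb); each bar spans its gene, red for the interferon-inducible list and dark blue for *Trim6*, and > or < marks the plus or minus strand. *Trim30a* is the highest, with 7419 reads per kilobase, and *Trim6* the lowest, with 37.2.

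Among TRIM genes that promote sensing or restrict virus, all 12 listed were above the floor, against 55.3% of protein-coding genes. Of these 12, 6 exceeded the protein-coding median per kilobase, which by definition is also the share of protein-coding genes with reads. *Trim25*, the ligase that attaches K63-linked ubiquitin to RIG-I (chr11:88999376-89020293, plus strand), was the highest of the 12. It had 16348 reads, or 520 CPM (95% CI, 513 to 529), and 2841 reads per kilobase. Its level was 46.7-fold that of *Trim65* (95% CI, 42.0 to 52.0), which serves the related RNA sensor MDA5 and had 358 reads, or 11.4 CPM. *Trim25* and *Trim30d* lay close together, with a ratio of 1.05 (95% CI, 1.02 to 1.07). Their longest transcripts have 5590 and 3282 bases against 5754 and 3758 merged exon bases, so the order of this pair depends on the length used.

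*Trim14*, a member without a RING that acts at the mitochondrial adaptor MAVS, had 5747 reads, or 183 CPM, and 1325 reads per kilobase. It did not differ from *Trim30c* beyond counting error (ratio of *Trim30c* to *Trim14*, 1.02; 95% CI, 0.976 to 1.08), and exons on the other strand covered 38.0% of its own. This tie depends on the length used, as *Trim14* has 4338 merged exon bases but a longest transcript of 2653. *Trim30c* has 1716 by either measure. *Trim8*, which activates TAK1 in NF-κB signalling, had 3251 reads, or 104 CPM, and 877 reads per kilobase. *Trim5*, described above, and *Trim44*, a RING-less member that stabilises MAVS, followed with 249 and 230 reads per kilobase, ahead of *Trim56*, a STING regulator, with 156 and *Trim21*, the cytosolic Fc receptor that destroys antibody-coated virus, with 110 reads per kilobase. *Trim21* was the lowest gene of the interferon-inducible list per kilobase, with 409 reads or 13.0 CPM, and its window holds the triple GAAA repeat. The other sensing genes were lower. *Trim23*, *Trim62* and *Trim6* had 44.2, 41.5 and 37.2 reads per kilobase with overlapping intervals, and *Trim32*, another STING ligase, had the fewest with 52 reads, or 16.1 reads per kilobase.

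Of the 9 TRIM genes listed as brakes on innate signalling, 6 were above the floor, against 55.3% of protein-coding genes. Of these 6 brakes, 5 exceeded the protein-coding median per kilobase. *Trim30a* led them by a wide margin, at 13.7-fold the level of *Trim11* (95% CI, 13.0 to 14.3). *Trim11*, which limits IFN-β induction, had 1944 reads, or 61.9 CPM, and 543 reads per kilobase. *Trim27*, a repressor of IKK-dependent signalling, had 1500 reads, or 47.8 CPM, and 273 reads per kilobase. *Trim59*, *Trim13* and *Trim39* had 172, 127 and 116 reads per kilobase, and the intervals of *Trim13* and *Trim39* overlapped. The remaining brakes were *Trim29*, *Trim38* and *Trim40*, all listed at 0. *Trim38*, like *Trim30a*, acts on TAB2 and TAB3.

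*Trim26*, a nuclear and cytosolic ligase reported to act on IRF3, and *Trim35*, which acts on TRAF3 and IRF7, had 625 and 607 reads per kilobase with overlapping intervals. *Trim26* did not differ from *Trim12c* beyond counting error (ratio of *Trim12c* to *Trim26*, 1.04; 95% CI, 0.99 to 1.09). That tie also depends on length, as *Trim26* has 6868 merged exon bases but a longest transcript of 4338. Outside the immune lists, *Trim3*, an NHL-repeat ligase found on endosomes, had 285 reads per kilobase, and *Trim37*, a MATH-domain ligase, had 73.5.

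The chromatin regulators with PHD and bromodomains were unequal. *Trim28* (KAP1), the corepressor of KRAB zinc fingers that silences endogenous retroviruses, had 1961 reads, or 62.4 CPM, and 472 reads per kilobase. This was 23.8-fold the level of *Trim33* (95% CI, 20.6 to 27.8), a repressor of *Ifnb1* in macrophages and a SMAD cofactor, and 27.2-fold that of *Trim24* (95% CI, 23.0 to 32.3), a nuclear receptor cofactor. *Trim33* and *Trim24* had 19.8 and 17.4 reads per kilobase and did not differ beyond counting error (ratio, 1.14; 95% CI, 0.915 to 1.42). Their longest transcripts have 8875 and 4042 bases against 9805 and 8521 merged exon bases, so this tie depends on the length used. *Trim66*, the member known from the germ line, was listed at 0.

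Several other genes were low. *Trim16* and *Trim7* had 37.2 and 33.7 reads per kilobase, *Trim41* had 28.5 and *Trim68* had 21.6, all under the protein-coding median. Of the 35 genes on the SPRY list used here, 25 were above the floor. The share was 61.8% of all TRIM genes and 55.3% of protein-coding genes. The SPRY list held 79.6% of the family's reads, and it includes *Trim30a*, *Trim25* and *Trim30d*. Genes listed under a COS box or as lacking a RING, such as *Trim14* and *Trim16*, were not counted there, whatever their C-terminal domain. Of 8 genes with a COS box, which binds microtubules, 2 were above the floor, against 55.3% of protein-coding genes. These were *Trim36* with 168 and *Trim46* with 19.3 reads per kilobase. Of the 4 muscle genes, *Trim54*, *Trim63* and *Trim72* were listed at 0, and *Trim55* had 3 reads. The NHL-repeat genes were split, with *Trim3* and *Trim32* above the floor and *Trim2* and *Trim71* at 0. Of the 5 genes without a RING, *Trim14*, *Trim44* and *Trim16* were above the floor, and *Trim29* and *Trim66* were at 0. *Trim31*, *Trim45*, *Trim47*, *Trim50*, *Trim52* and *Trim80* were also listed at 0. Among 5 neuronal genes, *Trim3* and *Trim46* were above the floor, and *Trim2*, *Trim9* and *Trim67* were listed at 0. Among 10 germ line, embryo or erythroid genes, 7 were listed at 0, including *Trim10* and *Trim58*, which act in red cell maturation. The 6 erythroid markers examined summed to 3.73 CPM, and 3 of them were listed at 0. These tissue lists, of 4, 5 and 10 genes, held 13 of the 25 genes listed at 0. Of all 68 TRIM genes 25 were at 0, and of 21819 protein-coding genes 9618 were. *Trim66* was not on the germ line list. The genes listed at 0 were also shorter, with a median of 2463 exon bases (range, 1436 to 19751) against 4248 for the genes above the floor, and the part of length in the zeros was not tested.

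**Figure D4:**
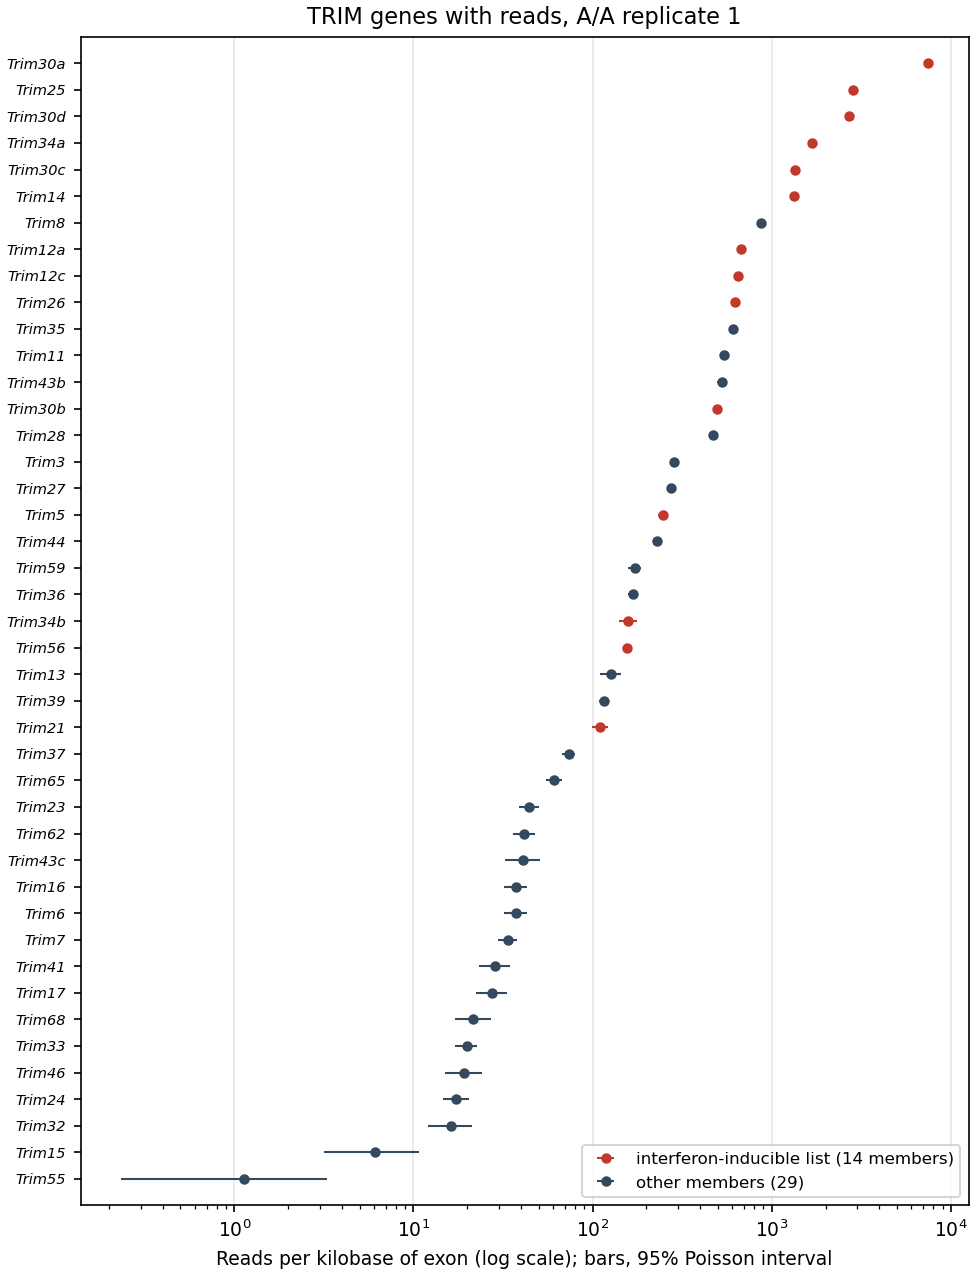
Reads per kilobase of exon (log axis) with 95% Poisson intervals for the 43 TRIM genes with reads, ordered from the highest; red points are the 14 genes of the interferon-inducible list and dark blue points the other 29. The red points fill 9 of the 10 highest places, and *Trim55* at the bottom has 3 reads.

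In the order by reads per kilobase, 28 of the 41 neighbouring pairs among the 42 genes above the floor had overlapping intervals. Among the 20 highest genes, 10 of 19 pairs overlapped, so the leading places were separated more often than the lower ones. On merged exon length, *Trim30a*, *Trim25*, *Trim30d* and *Trim34a* each stood apart from the gene below it.

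The 4 family members examined here that carry other symbols were left out of the counts. *Pml* (TRIM19), the organiser of PML nuclear bodies and itself an IFN-induced gene, had 8773 reads, or 279 CPM, and 1575 reads per kilobase. *Mefv*, which encodes pyrin, had 390 reads and 120 reads per kilobase, *Mid1* had 141 reads or 4.49 CPM, and *Mid2* was listed at 0.

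The enzymes that supply TRIM ligases with ubiquitin were present. All 13 E2 genes listed were above the floor, against 55.3% of protein-coding genes, and 11 of the 13 were over the protein-coding median per kilobase. *Ube2l6*, the E2 for ISG15, was the highest with 7080 reads per kilobase. *Ube2n*, which builds K63-linked chains with its partners *Ube2v1* and *Ube2v2*, had 471 reads per kilobase, and *Ube2e2* was the lowest with 2.16. All 7 ubiquitin and E1 genes were above the floor, including *Uba7*, the E1 for ISG15, with 3660 reads per kilobase.

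Known targets and partners of TRIM ligases in sensing were also all above the floor, 21 of 21, against 55.3% of protein-coding genes. Of the 21, 17 exceeded the protein-coding median per kilobase. *Irf7* was the highest with 27881 reads per kilobase. The genes for the sensors served by *Trim25* and *Trim65*, *Ddx58* (RIG-I) and *Ifih1* (MDA5), had 1999 and 3295 reads per kilobase, a smaller and opposite difference to that between their ligases. *Tab2* and *Tab3*, whose products *Trim30a* acts on, had 45.6 and 29.5 reads per kilobase, and *Ikbke*, the kinase gene downstream of *Trim6*, was the lowest with 21.1.

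**Figure D5:**
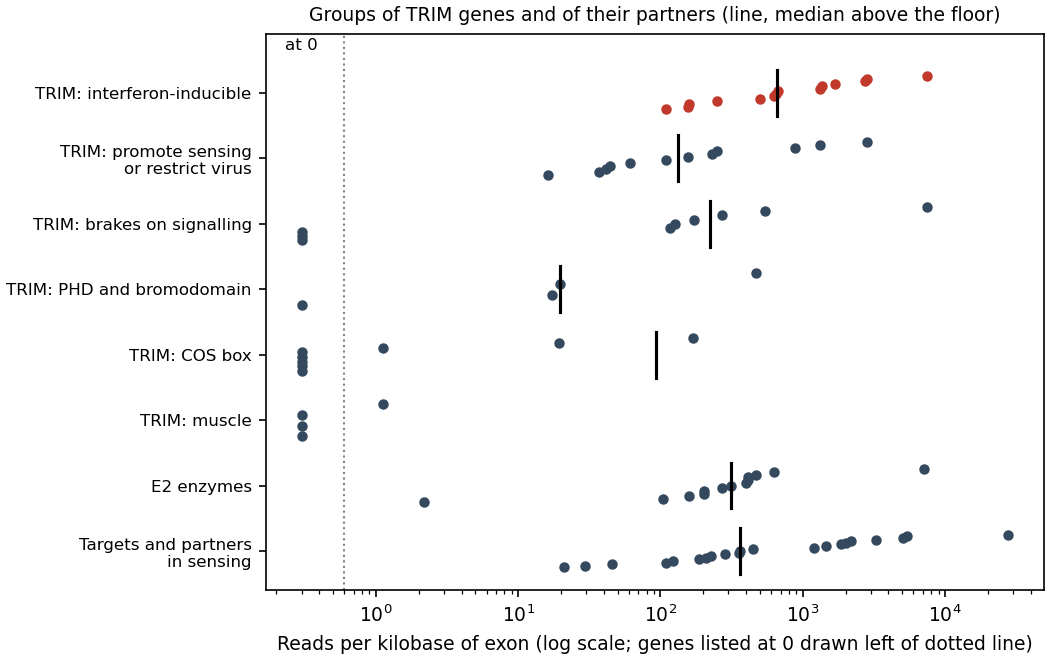
Reads per kilobase of exon (log axis) of each gene in groups of TRIM genes, E2 enzymes and partners in sensing; points are genes, black lines the median of genes above the floor, and genes listed at 0 are drawn left of the dotted line. The interferon-inducible group has the highest median of the TRIM groups, 660 reads per kilobase. The median is 133 for the sensing group, 222 for the brakes and 19.8 for the PHD and bromodomain group. These groups share genes. *Trim5*, *Trim14*, *Trim21*, *Trim25* and *Trim56* are in both the interferon-inducible and sensing groups. *Trim30a* is in both the interferon-inducible group and the brakes.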

How the data were processed

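The authors made mRNA libraries with the VAHTS v2 kit, sequenced 150-base read pairs and tested genotypes with DESeq2. HISAT2, StringTie and the builds mm8 and mm10 are named, without role, in the submitters' processing notes. Annotation and strand settings are not given in the sources used here. The deposited values of A/A replicate 1 are a normalized signal per gene. All values above 0 were whole multiples of 1.192 (within 0.01 of a read), and dividing by that step gave reads. Lengths were merged GENCODE M21 exons (99.7% of identifiers matched, 66 of 68 TRIM genes at the same coordinates). Intervals (95%) were Wilson for CPM and the array's share, exact Poisson for reads per kilobase, and exact binomial for ratios and the share of the 10 highest genes. Promoters came from RefSeq (GRCm38.p6), without Trim3, Trim8, Trim11, Trim14, Trim16, Trim17, Trim29, Trim33, Trim35, Trim36, Trim43b, Trim43c, Trim50, Trim55 and Trim65. In 43 of 53 TRIM genes the last 50 bases of the window lay in an annotated transcript.

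With a single library no statistical test between groups was run. Any TRIM gene could be named, with values for the 20 highest per kilobase and the role lists, and other lists by their highest and lowest genes. Uba7, Ube2n, Ddx58, Ifih1, Tab2 and Tab3 were named after their values were seen. The members and lists were chosen with earlier results of these data known, and the ratio pairs and CpG counts after levels were seen. 1 further motif count is not reported here. The script that recovers reads was checked on simulated data. Tools were Python 3.11.15, matplotlib 3.10.9, pandas 2.3.3, numpy 2.4.6, Biopython 1.88 and scipy 1.17.1.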

Additional observations from a re-analysis of the deposited data

How the results depend on the processing

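No paired analysis was possible because 1 library was analysed here, and for the same reason no replicate could be left out. The 42 genes above the floor became 43 with at least 1 read, 42 with at least 10 reads, 41 at 1 CPM or more, 45 with *Pml*, *Mid1*, *Mid2* and *Mefv* added and 39 without genes overlapped over 10% by opposite-strand exons. The median of 26.4 CPM fell to 5.06 CPM with genes at 0 included and was 22.4 CPM with the 4 added genes and again without the overlapped genes. As the deposited value it was 988, a change of unit. The median percentile of 70.6 was 90.1 among all genes, 58.7 among protein-coding genes with reads, 64.1 among genes with at least 10 reads and 66.8 per kilobase. The values among all genes, among protein-coding genes with reads and among genes with at least 10 reads follow from the genes counted. For the value per kilobase the cause was not tested. The share of the 10 highest genes, 79.3%, was 79.4% per kilobase and 78.1% with the 4 added genes. Of the 10 highest genes per kilobase, 9 stayed among the 10 highest with the longest transcript as length and 8 by CPM. Ratios between genes were computed on merged exons only, and several depend on that choice. The ISRE letters were found in 9 genes, in 6 with a leading AA, in 9 with single-base spacing and in 2 as a triple repeat. The triple repeat is a longer motif. A pseudocount of 0.1 in place of 1 moved the log2 level of 13 of 42 genes beyond counting error, by at most 1.52. The interval of *Trim15*, the lowest gene above the floor, ran from 0.219 to 0.668 CPM. Why the low genes were separated less often was not tested.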

Other observations

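Outside chromosome 7, TRIM genes also lie in small groups, and neighbours within a group differed. In the group beside the MHC class I genes on chromosome 17 (chr17:36837134-36910214), *Trim26* had 4290 reads and *Trim15* had 12, while *Trim10*, *Trim40* and *Trim31* were listed at 0. *Trim11* and *Trim17*, neighbours on chromosome 11, had 543 and 27.3 reads per kilobase, a ratio of 19.9 (95% CI, 16.3 to 24.5), and 19.0% of the exon bases of *Trim17* belong also to another gene on the same strand. *Trim65* had 358 reads and its neighbour *Trim47*, which shares exon bases with it, was listed at 0. All 3 genes of a group on chromosome 8, *Trim60*, *Trim61* and *Trim75*, were listed at 0.

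*Trim43b*, of a group on chromosome 9 known mainly from early embryos and germ line, had 1190 reads, or 37.9 CPM (95% CI, 35.8 to 40.1), and 526 reads per kilobase, which placed it at percentile 84.6 of genes with reads. *Trim43c* had 81 reads and 12.9-fold fewer reads per kilobase (95% CI, 10.3 to 16.4), and *Trim43a* was listed at 0. Exons on the other strand covered 38.6% of *Trim43c*, and 42.1% of its 50-base windows occurred in another gene. Of the 50-base windows of *Trim43b*, 47.7% occurred in another gene, and of the 150-base windows 5.57%, so the placing of reads within the group is uncertain. Whether reads of another gene were counted on *Trim43b* was not tested.

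CpG counts of the promoter windows are given as a description, with no test. The 13 interferon-inducible genes with a window had a median of 2 CpG per window (quartiles, 1 and 3), the 30 genes above the floor, which include these 13, had 14.5, the 23 genes at or under the floor had 7, and all genes with a window had 8. *Trim26* was the interferon-inducible gene with the most, 19.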
